A study of Rattus norvegicus with 22 samples.

Results

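The genes described here mark the cells that line blood and lymph vessels in fat. Of 10 genes listed by symbol, 9 have a row among the 24286 genes of the table, and Pecam1, a junction receptor of all endothelium, was not analysed here. The 9 were split by role into 3 lymphatic genes (Flt4, Prox1 and Lyve1), 5 blood vessel genes (Tie1, Tek, Cdh5, Kdr and Flt1) and 1 ligand (Vegfa). They were chosen by name, with earlier results of these data known. Level is given as CPM, read counts scaled to a common library total, and is used to compare libraries. To compare genes, the deposited FPKM is used, which also divides by transcript length.

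The 22 libraries were made from white fat of rats, wild type and on a high-fat diet in every sample, with 4 months in each title. The visceral depot was mesenteric and the subcutaneous depot inguinal. Rats with type 2 diabetes (T2DM) gave 6 visceral and 5 subcutaneous libraries. Duodenal-jejunal bypass (DJB) leads food past the duodenum, and operated rats likewise gave 6 visceral and 5 subcutaneous libraries. The treatment text of all samples names both streptozotocin at 30 mg/kg, a toxin of the insulin-producing cells, and the operation. The labels name no sham-operated or healthy rats and do not tie each library to its own animal, so the p-values measure the spread between these libraries, which may be partly technical. In whole tissue, fewer vessel cells and less RNA of these genes per cell cannot be told apart.

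Endothelial cells form vessels under the control of a few receptor tyrosine kinases. VEGF-A, the product of Vegfa, is secreted by many cells, adipocytes among them, and binds VEGFR2 (Kdr), the main driver of vessel growth, and VEGFR1 (Flt1), which also acts as a decoy. VEGFR3 (Flt4) binds VEGF-C and VEGF-D and drives growth of lymph vessels, and it is also found on sprouting blood vessels and some fenestrated capillaries. TIE2 (Tek) is the angiopoietin receptor and TIE1 its partner, Cdh5 encodes the cadherin that joins endothelial cells, Prox1 the transcription factor that sets lymphatic identity, and Lyve1 a hyaluronan receptor of lymph vessels that tissue macrophages also carry.

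RefSeq promoter sequences (assembly GRCr8, 250 bases before to 50 after the gene start) were found for 6 of the 10 genes: Flt4, Lyve1, Tie1, Kdr, Flt1 and Vegfa. Prox1, Tek, Pecam1 and Cdh5 had no entry. The promoter of Flt4, the receptor gene with a called difference between bypass and diabetes, is printed with those of Flt1 and Tie1, the blood vessel receptors that came nearest to it. Flt4 lies on the plus strand at chr10:34414584-34414883, Flt1 on the plus strand at chr12:12333180-12333479 and Tie1 on the minus strand at chr5:137304932-137305231. Each is written 5′ to 3′ along its gene, and capitals mark 2 motifs searched on both strands, AGGAAG (an ETS-type core, reading CTTCCT on the other strand) and GGGCGG (a GC box, reading CCGCCC on the other strand).
Flt4: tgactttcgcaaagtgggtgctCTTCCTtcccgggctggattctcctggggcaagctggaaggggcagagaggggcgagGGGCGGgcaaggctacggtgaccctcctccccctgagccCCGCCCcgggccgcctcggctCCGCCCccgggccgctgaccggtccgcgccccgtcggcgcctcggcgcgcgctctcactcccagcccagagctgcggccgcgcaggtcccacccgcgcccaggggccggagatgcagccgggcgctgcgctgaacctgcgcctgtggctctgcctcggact
Flt1: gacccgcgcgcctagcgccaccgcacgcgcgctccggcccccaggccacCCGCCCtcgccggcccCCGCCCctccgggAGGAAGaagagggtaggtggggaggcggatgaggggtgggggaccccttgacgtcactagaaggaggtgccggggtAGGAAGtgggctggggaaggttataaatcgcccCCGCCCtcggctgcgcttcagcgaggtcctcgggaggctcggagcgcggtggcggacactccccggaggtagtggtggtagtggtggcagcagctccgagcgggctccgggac
Tie1: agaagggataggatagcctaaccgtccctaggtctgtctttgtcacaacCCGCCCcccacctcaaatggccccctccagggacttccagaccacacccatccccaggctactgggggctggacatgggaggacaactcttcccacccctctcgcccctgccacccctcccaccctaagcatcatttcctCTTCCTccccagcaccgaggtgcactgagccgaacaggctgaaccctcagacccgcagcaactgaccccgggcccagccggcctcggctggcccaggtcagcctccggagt
No 2 matches overlapped in these promoters. The Flt4 promoter held 1 ETS-type core and 3 GC boxes, that of Flt1 held 2 and 3, and that of Tie1 held 1 and 1. Of the 6 genes, 4 held AGGAAG and 5 held GGGCGG, beside 34.5% and 33.1% of 33469 promoters of the same length. A gene was counted if any of its promoters held the motif, while these shares are per promoter. Vegfa had a further promoter, at chr9:22460028-22460327, that held neither motif. These matches describe the letters in the window and say nothing of whether a factor binds.

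Per length, Cdh5 was the most abundant of the 9 genes, with a median of 93.4 FPKM over the 22 libraries. Tek followed at 67.7 FPKM, Tie1 at 47.3, Kdr at 47.1, Lyve1 at 31.4, Flt1 at 29.6 and Vegfa at 24.8. The lymphatic receptor Flt4 stood lower at 4.77 FPKM and Prox1 lowest at 0.508 FPKM. All 9 passed the filter of at least 1 FPKM in at least 5 libraries, and Prox1 did so through 6 libraries, all of subcutaneous fat, the depot where it was high.

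**Figure D1:**
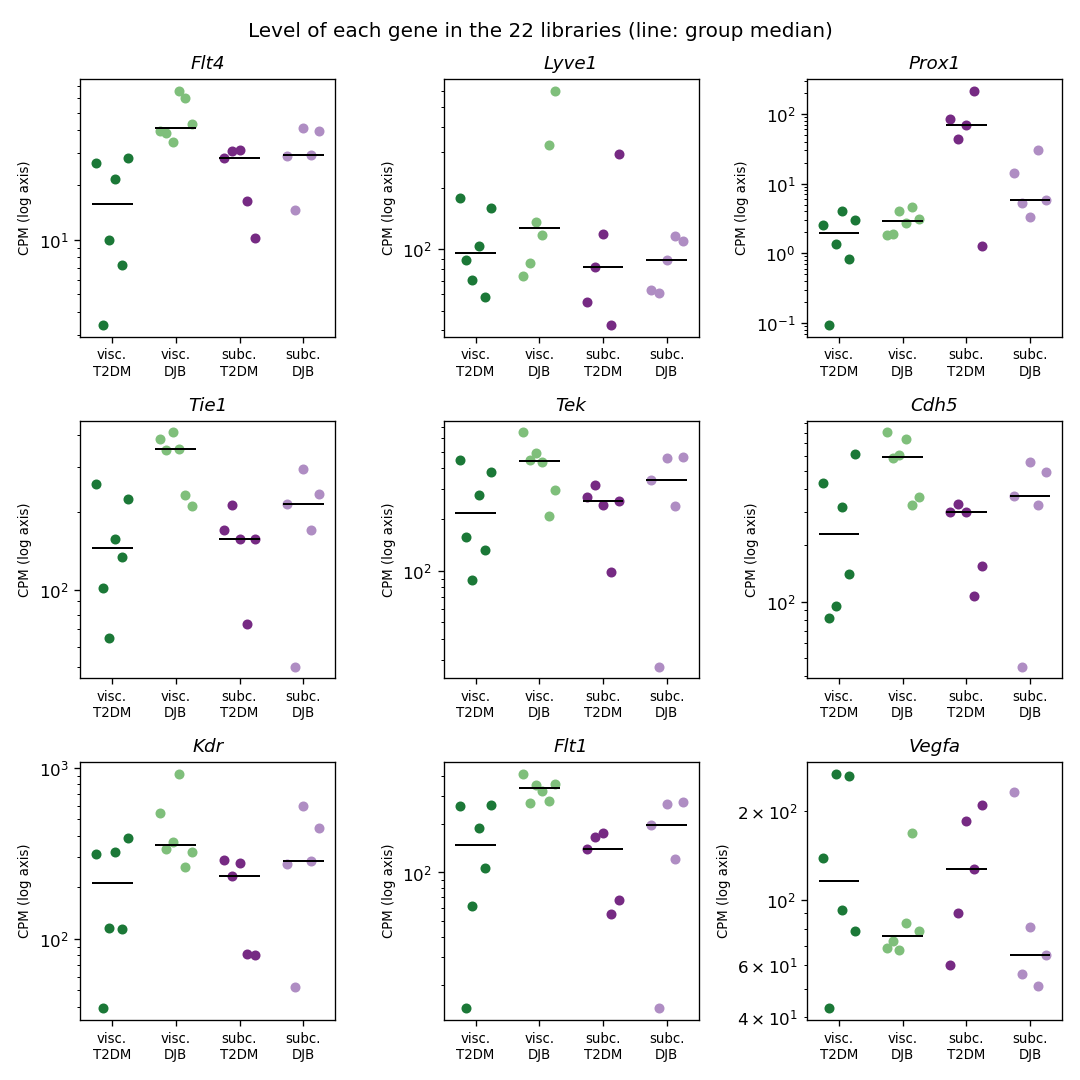
Level of each of the 9 genes in CPM (log axis) in the 22 libraries, by depot and group, 1 point per library and a line at the group median. Flt4 in visceral DJB lies between 34.3 and 66.1 CPM, above all visceral T2DM libraries, and Prox1 at 43.1 CPM or more is seen in 4 subcutaneous T2DM libraries only.

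In visceral fat 8 of the 9 genes had a positive difference between bypass and diabetes, beside 48% of all genes tested. Flt4 was the only 1 of the 9 that passed the test. Flt4 had a lowest, median and highest level of 3.39, 15.7 and 28.2 CPM in the 6 T2DM libraries and of 34.3, 41.4 and 66.1 CPM in the 6 DJB libraries. Every DJB library lay above every T2DM library. The rise was 2.91-fold (log2 1.54, SE 0.42, adjusted p = 0.0416 by edgeR's quasi-likelihood test). Of all 14019 genes tested, 0.421% were called higher, 4.27% lower and 4.69% in either direction in this comparison, and 0.521% had every DJB library above every T2DM library.

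The Flt4 call stood close to the threshold. Over 23 other settings the log2 difference stayed between 1.11 and 1.9 and the adjusted p ran from 0.00527 to 0.307, with 6 settings keeping the call and 17 losing it. It was lost when any 1 of the 6 DJB libraries or T2DM library 2, 3 or 5 was left out (adjusted p 0.0646 to 0.0934), and under limma on either FPKM scale. T2DM libraries 2 and 5 were poor in long transcripts relative to the other libraries. The Spearman rho with transcript length was -0.55 and -0.39, taken on each gene's log2 CPM minus its mean over the 22 libraries. Flt4 is a long gene at 5.98 kb beside a median of 2.30 kb over all tested genes. With the length trend taken out of each library the rise was 1.40 on the log2 scale (adjusted p = 0.0359), and without libraries 2 and 5 it was 1.11 (adjusted p = 0.224). T2DM libraries 2, 3 and 4 held bladder lining transcripts, with 6 urothelial markers summing to 1738, 1686 and 1149 CPM against 52.5 CPM or less in the other 19 libraries, and without these 3 the Flt4 difference was 1.19 (adjusted p = 0.307).

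Neither of the other lymphatic genes passed the test in visceral fat. Lyve1 ranged from 58.5 to 179 CPM in T2DM (median 96.0) and from 74.0 to 604 CPM in DJB (median 127). The groups overlapped, and the DJB range was set by libraries 5 and 6, at 325 and 604 CPM. The difference was 1.03 (log2, SE 0.51, adjusted p = 0.246), and 0.43 without DJB library 6. Prox1 was the lowest of the 9 genes here, with a lowest, median and highest of 0.0928, 1.95 and 4.03 CPM in T2DM and of 1.81, 2.92 and 4.55 CPM in DJB. Its difference was 0.60 (log2, 95% interval -1.0 to 2.20, adjusted p = 0.690).

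The 5 blood vessel genes all had a positive difference between visceral DJB and visceral T2DM, and 0 of them passed the test by edgeR. Their mean log2 CPM was 7.33 ± 1.08 (SD, n = 6; 5.89 to 8.45) in T2DM and 8.61 ± 0.41 (n = 6; 8.02 to 9.07) in DJB. The T2DM libraries were spread over a wide range. DJB libraries 5 and 6, at 8.02 and 8.25, lay within that range, and the other DJB libraries lay above it. At an unadjusted p under 0.05 edgeR gave 1 of the 5, Tie1, where 22.2% of all genes passed. Leaving out T2DM libraries 2 and 5 brought the median difference of the 5 from 1.05 to 0.68 (log2), and leaving out 2, 3 and 4 brought it to 0.66.

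Flt1, the VEGFR1 gene, had a lowest, median and highest of 14.3, 147 and 262 CPM in visceral T2DM and of 271, 337 and 409 CPM in visceral DJB. These groups did not overlap either, although the difference of 1.16 (log2, SE 0.57) had an adjusted p of 0.239. The T2DM libraries spread widely, and library 2 alone was at 14.3 CPM while the next lowest was at 61.7 CPM. Tie1 went from 64.9, 145 and 257 CPM to 211, 351 and 409 CPM (log2 1.05, SE 0.37, adjusted p = 0.0948). Its groups overlapped, since DJB libraries 5 and 6, at 234 and 211 CPM, lay within the T2DM range. DESeq2 called Tie1 (adjusted p = 0.0438), as did edgeR without T2DM library 1 (adjusted p = 0.0382).

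Kdr, the VEGFR2 gene, ranged from 39.1 to 389 CPM in visceral T2DM (median 213) and from 263 to 918 CPM in DJB (median 352), a difference of 1.09 (log2, 95% interval -0.05 to 2.22, adjusted p = 0.249). Cdh5 ranged from 81.5 to 612 CPM (median 231) and from 330 to 802 CPM (median 596), a difference of 1.03 (95% interval -0.05 to 2.11, adjusted p = 0.252). Tek ranged from 88.6 to 447 CPM (median 219) and from 211 to 648 CPM (median 442), a difference of 0.77 (95% interval -0.25 to 1.79, adjusted p = 0.375). T2DM libraries 1 and 6 reached into the DJB range for all of these genes, and library 4 did so for Kdr and Tek. Each interval holds both 0 and 1 on the log2 scale.

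Vegfa went the other way from its receptors without passing the test. It had a lowest, median and highest of 42.8, 116 and 268 CPM in visceral T2DM and of 67.4, 75.3 and 169 CPM in visceral DJB (log2 -0.71, SE 0.45, adjusted p = 0.373). T2DM libraries 3 and 5 were high, at 268 and 263 CPM, and DJB library 5 stood alone at 169 CPM above 67.4 to 83.3 CPM in the other 5. Vegfa was also apart from the receptors across libraries, with a Spearman rho between -0.23 and -0.10 with the 5 blood vessel genes over the 22 libraries. Among themselves those 5 gave rho values of 0.80 to 0.95. The depots differed for Vegfa. With the summed CPM of further endothelial genes it had a rho of -0.56 over the 12 visceral libraries and 0.19 over the 10 subcutaneous ones. All points share the libraries' scaling and composition, so these are descriptions.

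**Figure D2:**
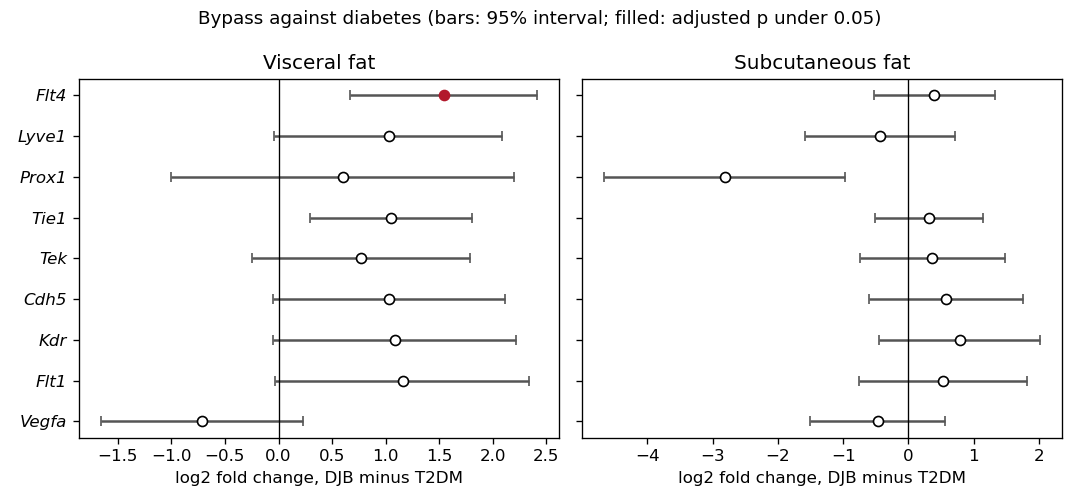
Difference between DJB and T2DM as log2 fold change for the 9 genes, in visceral fat (6 against 6 libraries) and subcutaneous fat (5 against 5), with 95% intervals as bars and a filled point where the adjusted p was under 0.05. Flt4 in visceral fat, at 1.54, is the only filled point.

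Flt4 followed the blood vessel genes more than the other lymphatic genes. Over the 22 libraries its Spearman rho was 0.86 with Flt1, 0.77 with Tie1, 0.73 with Kdr and Cdh5 and 0.61 with Tek, and 0.42 with Lyve1 and 0.26 with Prox1. Prox1 and Lyve1 had a rho of -0.19 with each other. With group means taken out, Flt4 gave 0.88 with Kdr, 0.81 with Cdh5, 0.78 with Flt1, 0.63 with Tie1 and 0.56 with Tek. The same measure gave Flt4 0.50 with Prox1, close to Tek, and 0.36 with Lyve1, and Prox1 0.06 with Lyve1. Relative to the mean of the 5 blood vessel genes, in visceral fat Flt4 stood at -3.68 ± 0.40 (log2, SD, n = 6) with T2DM and -3.10 ± 0.61 (SD, n = 6) with DJB, with ranges of -4.13 to -3.06 and -3.76 to -2.11 that overlap. In subcutaneous fat the same ratio was -2.96 ± 0.48 (n = 5) in T2DM and -2.77 ± 0.88 (n = 5) in DJB.

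Outside the 9 genes, the pattern most like that of Flt4 was that of Dock9 (Spearman rho 0.904), followed by Tead4, Ppp1r2, Snn and Galnt18 (0.883 to 0.859). The mean of the blood vessel genes was matched most closely by Erg, an endothelial ETS transcription factor (0.967), followed by Ptprm, Cald1, Epas1 and Fgd5 (0.957 to 0.949). These are the 5 highest of each among all tested genes with a symbol, over the 22 libraries. With group means taken out, the 5 of Flt4 ran from 0.554 (Ppp1r2) to 0.887 (Dock9), and those of the blood vessel mean from 0.919 (Cald1) to 0.970 (Erg).

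In subcutaneous fat 0 of the 9 genes were called between bypass and diabetes by edgeR, as were 0 of all 14019 (0%), with 1259 (8.98%) at an unadjusted p under 0.05 and 168 called by DESeq2. The DESeq2 calls included 1 of the 9, Prox1. Prox1 was at 85.2, 43.1, 69.7, 216 and 1.25 CPM in T2DM libraries 1 to 5 and at 14.0, 5.32, 3.30, 30.8 and 5.81 CPM in DJB libraries 1 to 5. T2DM libraries 1 to 4 lay above every DJB library, and T2DM library 5 lay below them all. The difference was -2.81 (log2, SE 0.89, adjusted p = 0.281 by edgeR and 0.0382 by DESeq2). Leaving out 1 library gave -3.54 (without DJB library 4) to -2.08 (without T2DM library 4), and -3.13 without T2DM library 5.

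Prox1 moved with milk protein transcripts in the subcutaneous libraries. Casein and whey genes (Csn1s1, Csn2, Csn3, Wap and Lalba) took 10.4, 10.9, 8.59, 18.2 and 0.0572% of all counts in T2DM libraries 1 to 5 and 2.14, 0.536, 0.0768, 7.60 and 0.912% in DJB libraries 1 to 5. The libraries richest in milk transcripts in each group, T2DM library 4 and DJB library 4, were also the highest for Prox1, and the poorest, T2DM library 5 and DJB library 3, were the lowest. Over the 10 subcutaneous libraries the summed CPM of these genes had a Spearman rho of 0.96 with Prox1. The pattern was not particular to milk genes. The summed CPM of mesothelial markers (Msln, Upk3b, Wt1, Lrrn4 and Krt19) had a rho of 0.95 with Prox1 over the same libraries. In visceral libraries the milk genes took at most 0.0551% of counts and Prox1 stayed at or below 4.55 CPM. The part of mammary tissue in the Prox1 values was not tested.

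**Figure D3:**
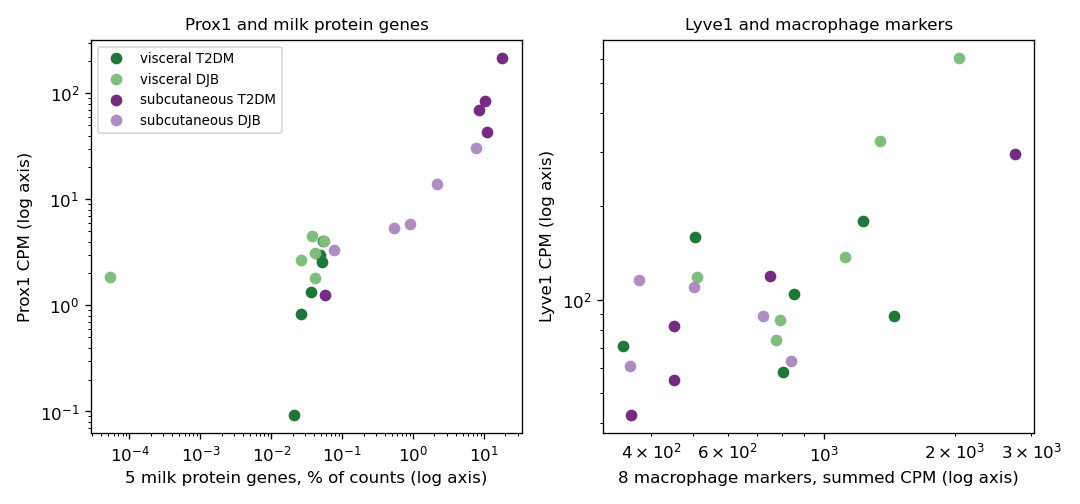
Left, Prox1 in CPM against the share of all counts in 5 milk protein genes, and right, Lyve1 in CPM against the summed CPM of 8 macrophage markers, 1 point per library, all axes logarithmic and colours by group. Prox1 is highest at the library with 18.2% milk transcripts, and the highest Lyve1 value, 604 CPM, is at a macrophage sum of 2050 CPM.

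Flt4 and Lyve1 did not share that pattern in subcutaneous fat. Flt4 was at 28.3, 30.7, 31.1, 16.3 and 10.2 CPM in T2DM and at 29.0, 14.5, 41.3, 29.1 and 39.9 CPM in DJB (log2 0.40, 95% interval -0.53 to 1.33, adjusted p = 0.895), and the groups overlapped. T2DM library 4, with the most Prox1, had the second lowest Flt4 of its group. Lyve1 was at 55.0, 82.2, 119, 42.4 and 295 CPM in T2DM and at 63.2, 60.8, 88.6, 116 and 110 CPM in DJB. Its difference was -0.44 (log2, SE 0.56, adjusted p = 0.917), and turned to 0.23 without T2DM library 5, the library at 295 CPM.

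Lyve1 peaked in libraries where several marker sums were high. The 3 libraries with the most Lyve1 were visceral DJB 5 and 6 and subcutaneous T2DM 5, and the 8 macrophage markers summed to 1347, 2050 and 2749 CPM there. In the other libraries the sum ran from 344.1 to 1448 CPM, and visceral T2DM library 2 had the 1448 CPM with 88.2 CPM of Lyve1. Visceral DJB 5 and 6 also held the highest visceral sums of the other lymphatic genes, 546.8 and 619.1 CPM, and subcutaneous T2DM 5 the highest stromal progenitor sum, 33750 CPM. Other libraries had high sums without high Lyve1. Subcutaneous DJB 2 had the highest lymphatic sum, 954 CPM, with 60.8 CPM of Lyve1. Subcutaneous DJB 1 had the next highest stromal sum, 16820 CPM, with 63.2 CPM of Lyve1. Over the 12 visceral libraries Lyve1 had a Spearman rho of 0.69 with the stromal sum, 0.64 with the other lymphatic genes and 0.54 with the macrophage sum. Over the 10 subcutaneous libraries these were 0.53, 0.22 and 0.62. The part of these cells in the Lyve1 values was not tested.

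The 5 blood vessel genes had positive differences in subcutaneous fat too: Kdr 0.79, Cdh5 0.58, Flt1 0.53, Tek 0.37 and Tie1 0.32 (log2, adjusted p 0.812 to 0.937), with Tek at -0.09 and -0.11 by limma on the FPKM scales. Their median of 0.53 stood beside 0.05 for all genes tested. Kdr was at 288, 232, 277, 81.4 and 80.4 CPM in T2DM and at 274, 52.1, 597, 286 and 446 CPM in DJB, with the T2DM range inside the DJB range. Subcutaneous DJB library 2 stood apart from the other 4, with Flt1 at 14.4 CPM against 121 to 275 CPM, Tek at 27.4 CPM against 239 to 466 CPM and Cdh5 at 45.0 CPM against 327 to 556 CPM. That library also had the lowest summed adipocyte markers of all 22 (295.4 CPM, against 1512 CPM or more in the others) and the lowest summed mural cell markers (259.9 CPM). Without it the 5 differences were between 0.55 and 1.05 (log2) and 0 of the 9 genes were called.

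Vegfa in subcutaneous fat was at 60.3, 90.1, 186, 127 and 211 CPM in T2DM and at 233, 55.9, 80.7, 51.0 and 64.8 CPM in DJB (log2 -0.47, SE 0.50, adjusted p = 0.891). DJB library 1 held the highest value of both groups, and without it the difference was -1.09. Over the 10 subcutaneous libraries Vegfa had a Spearman rho of -0.81 with the mitochondrial share of counts. That share had a median of 8.96% in subcutaneous T2DM and 22.6% in subcutaneous DJB, and its part in the Vegfa values was not tested. The bypass effect itself was compared between depots in the same model. Of the 9 genes 0 were called by edgeR, as were 0 of 14019 (0%, with 1957 at an unadjusted p under 0.05 and 123 called by DESeq2). The difference of the effects, visceral minus subcutaneous, was 1.14 for Flt4 (log2, 95% interval -0.12 to 2.41, adjusted p = 0.422), 1.46 for Lyve1 (95% interval -0.11 to 3.03, adjusted p = 0.404) and 3.41 for Prox1 (95% interval 1.0 to 5.82, adjusted p = 0.243). For the 5 blood vessel genes it was 0.30 to 0.73 (adjusted p 0.598 to 0.913).

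Between the depots in diabetes Prox1 was the only gene of the 9 that passed the test. It was 41.7-fold lower in visceral than in subcutaneous fat (log2 -5.38, SE 0.92, adjusted p = 0.00191), in a comparison where 3.28% of all genes were called lower, 5.44% higher and 8.72% in either direction. Prox1 had passed the filter only through subcutaneous libraries, so a depot difference was built into its selection, and its p is no independent evidence. With no filter on levels the adjusted p was 0.00246. The groups overlapped through subcutaneous library 5, the one with 0.0572% milk transcripts, whose 1.25 CPM lay inside the visceral range of 0.0928 to 4.03 CPM. All 5 milk genes were called lower in visceral fat in this comparison too. Wap averaged 0.0683 CPM in visceral and 16.2 CPM in subcutaneous T2DM, so a depot difference was built into its selection as well. Csn1s1 averaged 383 and 80600 CPM, and through which libraries the other milk genes passed the filter was not examined. Their calls are given as description. Without subcutaneous library 5 the Prox1 difference was -5.70, without subcutaneous library 4, at 216 CPM, it was -4.65, and by limma on log2(FPKM + 1) it was -2.74, each with the call kept. The other 8 genes were not called. Flt4 gave -0.53 (log2, 95% interval -1.42 to 0.36, adjusted p = 0.488) and Lyve1 gave -0.11, or 0.56 without subcutaneous library 5. The 5 blood vessel genes gave 0.02 to 0.29 (adjusted p 0.818 to 0.982), which turned to between -0.50 and -0.11 when libraries were scaled by TPM, and Vegfa gave 0.13, or -0.25 with TPM scaling.

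After bypass 0 of the 9 genes were called between the depots, where 1.32% of all genes were (2028 at an unadjusted p under 0.05, and 719 called by DESeq2). Prox1 gave -1.97, visceral minus subcutaneous (log2, SE 0.81, adjusted p = 0.252), and Lyve1 gave 1.35 (SE 0.55, adjusted p = 0.244). The blood vessel genes gave 0.46 to 0.92 (adjusted p 0.396 to 0.789), Flt4 gave 0.61 and Vegfa -0.11. Ordered by group median, Flt4, Tie1, Tek, Cdh5, Kdr and Flt1 were highest in visceral DJB, followed by subcutaneous DJB. Neighbouring groups in these orders overlapped for every gene.

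Other vessel genes, from lists chosen by function with earlier results of these data known, give the setting of the 9. Of 27 further endothelial genes tested, 26 had a positive difference between visceral DJB and visceral T2DM, beside 48% of all genes. Their median was 0.91 (log2) beside -0.03 for all genes. Of the 27, 2 rose by edgeR and 0 fell, where 0.421% of all genes were called higher, and DESeq2 called 4 higher. By edgeR 11 were under 0.05 before adjustment, beside 22.2% of all genes. Plvap, which forms the diaphragms of fenestrated capillaries, went from 93.9 ± 46.6 to 265 ± 67.6 CPM (SD, n = 6 each; log2 1.5, adjusted p = 0.0379), and Nos3, the endothelial nitric oxide synthase, from 50.9 ± 25.2 to 142 ± 48.0 CPM (log2 1.47, adjusted p = 0.0427). In both, every DJB library lay above every T2DM library. Of 23 other settings, 7 kept the Plvap call (adjusted p 0.00354 to 0.379) and 5 the Nos3 call (0.00594 to 0.413). Both were lost under limma, TPM scaling, no filter and only the groups compared. Fli1 (0.98, adjusted p = 0.0636) and the Notch receptor gene Notch4 (1.27, adjusted p = 0.106) came next. Without T2DM libraries 2 and 5 the median was 0.70 with 0 called, and without 2, 3 and 4 it was 0.57 with 0 called.

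**Figure D4:**
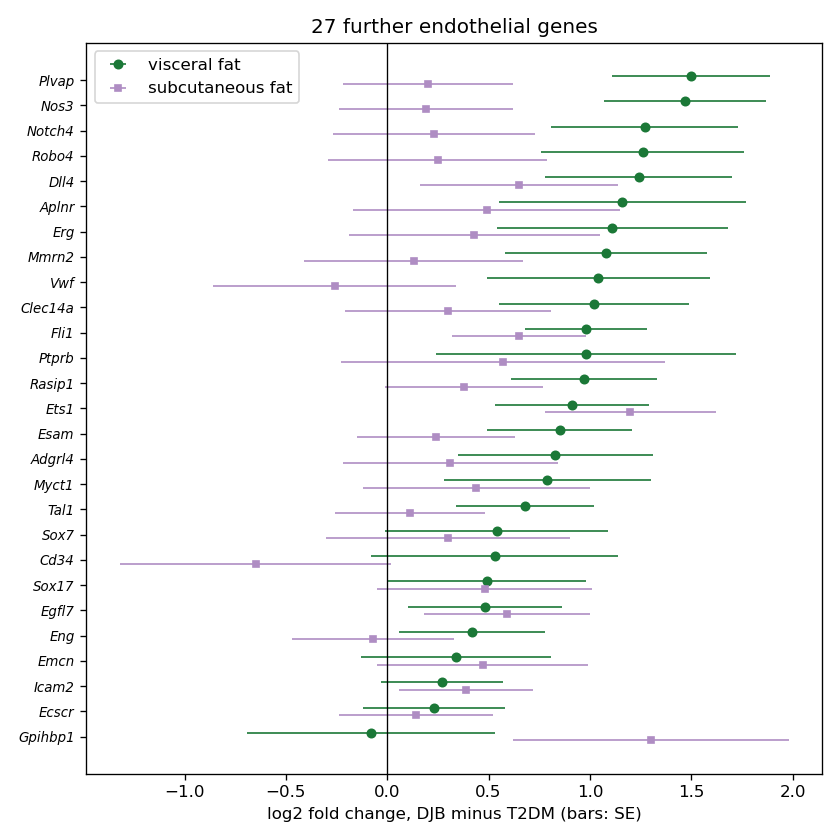
Difference between DJB and T2DM as log2 fold change for 27 further endothelial genes, ordered by the visceral value, in visceral fat (circles) and subcutaneous fat (squares), with SE as bars. The visceral values are above 0 for 26 genes and led by Plvap at 1.5 and Nos3 at 1.47.

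In subcutaneous fat 24 of the 27 had a positive difference (14 and 11 by limma on the 2 FPKM scales), beside 55.2% of all genes by edgeR. The median was 0.31, beside 0.05 for all genes. By edgeR or DESeq2 0 were called. By edgeR 1 had an unadjusted p under 0.05, beside 8.98% of all genes. Ets1 had the smallest p (1.2, adjusted p = 0.337). Plvap gave 0.20 and Nos3 0.19 there, and the difference of the effects between the depots was 1.30 for Plvap (adjusted p = 0.319) and 1.29 for Nos3 (adjusted p = 0.333). In diabetes Plvap was lower in visceral fat (log2 -1.34, adjusted p = 0.0415), the only edgeR call of the 27 between depots, where 8.72% of all genes were called. This call was kept in 8 of 22 other settings (adjusted p 0.0106 to 0.265) and DESeq2 called 1 further gene higher. The subcutaneous T2DM mean was 238 ± 90.1 CPM (SD, n = 5), beside 265 CPM in visceral DJB.

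Of 10 ligand and co-receptor genes tested, 0 were called in visceral fat between bypass and diabetes by edgeR or DESeq2. By edgeR 3 had an unadjusted p under 0.05, beside 22.2% of all genes. The difference was positive for 8 of the 10 (median 0.56), beside 48% of all genes. The ligands of the Flt4 receptor were Vegfc, at 14.9 ± 7.36 CPM in T2DM and 22.5 ± 8.92 CPM in DJB (n = 6 each; log2 0.59, adjusted p = 0.371), and Vegfd, at 57.2 ± 35.7 and 114 ± 44.6 CPM (log2 0.99, adjusted p = 0.324). Nrp2, a co-receptor of Flt4, gave 1.00 (adjusted p = 0.136) and Angpt2, a ligand of TIE2, 1.22 (adjusted p = 0.182). In diabetes Vegfb, a ligand of VEGFR1, was the 1 gene of the list that passed the test between depots, at 40.6 ± 15.9 CPM (n = 6) in visceral and 9.21 ± 5.19 CPM (n = 5) in subcutaneous fat (log2 2.14, adjusted p = 0.00999). Every visceral library lay above every subcutaneous library, as for 2.56% of all genes, and 5.44% of all genes were called higher. The call was kept in 20 of 22 other settings and lost with TPM scaling and without visceral T2DM libraries 2 and 5 (highest adjusted p 0.16).

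Further lymphatic genes gave mixed directions. Of 8 tested, 0 were called between bypass and diabetes in visceral fat by edgeR, and DESeq2 called 1 lower. By edgeR 3 had an unadjusted p under 0.05, beside 22.2% of all genes. Of the 8, 5 were positive and 3 negative, where 48% of all genes were positive. Pdpn, a membrane protein of lymphatic endothelium and of some fibroblasts and mesothelium, gave 1.47 (adjusted p = 0.208) and the secreted protein gene Reln 1.25 (adjusted p = 0.219). Gata2, a transcription factor of lymph vessel valves and of blood cells and preadipocytes, gave -1.41 (adjusted p = 0.0872). It averaged 98.9 ± 77.3 CPM in visceral T2DM and 37.3 ± 14.9 CPM in visceral DJB (SD, n = 6 each). Visceral T2DM libraries 2, 3 and 4 held urothelial transcripts, and their part in the Gata2 values was not tested. In diabetes Reln was lower in visceral fat (-2.22, adjusted p = 0.0319) and Gata2 higher (1.87, adjusted p = 0.0293), where 8.72% of all genes were called. Each call was kept in 10 of 22 other settings (adjusted p 0.00367 to 0.16 and 0.00308 to 0.469), and both were lost under limma, TPM scaling, only the groups compared and without T2DM libraries 2, 3 and 4. Reln averaged 4.08 CPM in visceral and 19.0 CPM in subcutaneous T2DM. Through which libraries it passed the filter was not examined, so its call is given as description.

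All 22 libraries held adipocyte transcripts, with 9 markers summing to between 295.4 and 44810 CPM, and total counts of 46824314 to 88829000. The visceral adipocyte sums ran from 8333 to 44810 CPM in T2DM and from 5437 to 12780 CPM in DJB. The sum of the 8 mural cell markers, which belong to the cells around vessels, overlapped between these groups at 682.8 to 3153 and 1418 to 2301 CPM. Flt4 had a Spearman rho of -0.62 with the adipocyte sum over the 12 visceral libraries and 0.88 over the 10 subcutaneous ones. The part of cell composition in the Flt4 difference was not tested.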

How the data were processed

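RNA was extracted with Trizol and libraries followed Illumina protocols, per the labels' protocols. The deposited table holds, per the file headers, raw read counts and FPKM for each gene and library. Per the submitters' processing notes, cutadapt 1.9, FastQC and the build mRatBN7.2 were used. Which aligner, counter, strand setting and annotation were used is not given in the sources used here. Reads of overlapping genes could be counted under either. Groups came from the sample labels, which give no batch. Genes with at least 1 FPKM in at least 5 libraries (14019 of 24286) were tested on counts with edgeR 4.0.16 (R 4.3.3), quasi-likelihood test, TMM scaling (factors 0.543 to 1.39), 1 mean per group over all 22 libraries, two-sided, Benjamini-Hochberg adjustment over all genes tested, threshold 0.05. The 5 contrasts were bypass against diabetes in each depot, the difference of these effects, and visceral against subcutaneous fat in each group. The effects share no library between depots, but the depot contrasts use the same libraries as they do. SE is the log2 fold change over the root of its F statistic. CPM are TMM-scaled. The alternatives were DESeq2 1.42.0 with its own size factors, limma 3.58.1 on log2(FPKM + 1) and log2(FPKM + 0.1), RLE and TPM scaling, no filter, only the groups compared, a replicate block, a length trend removed, and libraries left out. The steps were tested on simulated counts with the same spread for every gene, smaller than the spread of these data. That test does not show how calls near the threshold behave here. The genes and lists were chosen with earlier results of these data known. Named are the listed genes, from each other list the called members and up to 4 with the smallest p, and the 5 genes most like Flt4 and most like the blood vessel mean.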

Additional observations from a re-analysis of the deposited data

Results flagged for a closer look

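In visceral DJB, Vegfa was 169 CPM in library 5, where the other 5 libraries lay between 67.4 and 83.3 CPM, a gap large for a group of 6 by Dixon's criterion. In subcutaneous DJB, Vegfa was 233 CPM in library 1, where the other 4 lay between 51.0 and 80.7 CPM. These were the 2 sets flagged among the 36 sets of 1 gene in 1 group examined, and chance flags about 1 in 20 such sets.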

How the results depend on the processing

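Between visceral DJB and T2DM the number of the 9 genes called was 1 (Flt4). It was 0 with TPM scaling, limma on either FPKM scale, no filter, only the groups compared, the replicate block and without T2DM libraries 2 and 5 or 2, 3 and 4, and 2 with DESeq2, which added Tie1; leaving out 1 library gave 0 to 2. In subcutaneous fat it was 0, but 1 with DESeq2 (Prox1), and the other 3 contrasts kept their count under every setting run. Same-numbered libraries correlated at -0.17 to 0.52 in 31 pairs, 9 of them over 0.1. The pairs include libraries of different treatments, and the highest value joined visceral T2DM library 1 and subcutaneous DJB library 1. Differently numbered libraries were not compared, so these values cannot decide whether equal numbers mark the same rat. With the replicate block Flt4 gave 1.75 (adjusted p = 0.131 by edgeR), and all-gene calls were 0 in visceral fat, 609 between depots in T2DM and 5 in DJB.

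Signs turned only for values not called. Visceral minus subcutaneous in T2DM, Tie1, Tek, Cdh5, Kdr and Flt1 gave -0.50, -0.42, -0.21, -0.18 and -0.11 with TPM scaling, -0.34, -0.37, -0.34, -0.26 and -0.25 by limma on log2(FPKM + 1), -0.36, -0.38, -0.36, -0.30 and -0.37 on log2(FPKM + 0.1), and -0.04, -0.08, -0.15, -0.21 and -0.13 with the block. Vegfa there gave -0.25 (TPM), -0.30 and -0.33 (limma), and Lyve1 0.11 and 0.16 without the 2 sets of T2DM libraries. TPM scaling moved the median of all genes from 0.02 to -0.46 in this contrast, from 0.05 to -0.21 for subcutaneous bypass and from -0.07 to 0.28 for the difference of effects. Subcutaneous Tek gave -0.09 and -0.11 by limma. For the difference of effects, Vegfa gave 0.28 and 0.31 by limma, Kdr -0.11 and Cdh5 -0.04 and Kdr -0.03 without the same sets; Vegfa between depots in DJB gave 0.02 with the block. Leaving out 1 library turned values over these ranges: in the T2DM depot contrast Tie1 -0.18 to 0.19, Tek -0.20 to 0.24, Cdh5 -0.17 to 0.41, Kdr -0.09 to 0.36, Lyve1 -0.33 to 0.56 and Vegfa -0.13 to 0.35, subcutaneous Lyve1 -0.65 to 0.23, the difference of effects for Kdr -0.03 to 0.62 and for Vegfa -0.52 to 0.38, and Vegfa between depots in DJB -0.39 to 0.51. The causes were not tested.

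Calls over all genes in visceral fat numbered 658, and 115 (TPM), 1459 (DESeq2), 0 (limma), 237 (no filter), 1 (only the groups compared), 275 (length trend), 73 and 0 (the 2 sets left out) and 1 to 1744 (1 library left out). Between depots in T2DM they numbered 1222, and 482 (TPM), 1964 (DESeq2), 716 and 642 (limma), 577 (only the groups compared), 454 and 797 (the sets) and 575 to 1779 (1 library left out). In DJB they numbered 185, and 719 (DESeq2), 13 and 14 (limma), 110 (no filter), 7 (only the groups compared), 302 (length trend) and 6 to 486. Subcutaneous bypass had 0, and 168 (DESeq2) and 0 to 29 (1 library left out, 29 without DJB library 2). Depth limits Prox1 in visceral fat, where it had 4 to 319 reads a library.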

Other observations

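Vegfa is induced by low oxygen in many tissues. Genes listed for the response to low oxygen, the transcription factor genes Hif1a and Epas1 among them, went in different directions. Of 11 tested, 1 fell and 0 rose by edgeR between visceral DJB and T2DM, where 4.27% of all genes were called lower. DESeq2 called 2 in each direction. By edgeR 5 had an unadjusted p under 0.05, beside 22.2% of all genes. Egln3, an oxygen-sensing hydroxylase, fell from 24.6 ± 20.4 to 7.63 ± 2.43 CPM (SD, n = 6 each; log2 -1.69, adjusted p = 0.0333 by edgeR). The call was kept in 8 of 23 other settings (log2 -2.02 to -0.37, adjusted p 0.00189 to 0.777) and lost, among others, without T2DM libraries 2, 3 and 4, which held urothelial transcripts, under limma, TPM scaling, no filter and only the groups compared. Hif1a, the oxygen-regulated transcription factor, gave 1.07 (adjusted p = 0.0588), the vasodilator peptide gene Adm 1.70 (adjusted p = 0.0591) and Pdk1, a brake on pyruvate oxidation, -0.93 (adjusted p = 0.0594). In subcutaneous fat 0 of the 11 were called by edgeR or DESeq2 (2 had an unadjusted p under 0.05 by edgeR, beside 8.98% of all genes). Slc2a1, the basal glucose transporter, gave -1.46 there (adjusted p = 0.360).

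Between the depots in diabetes 4 of the 11 were called, 2 in each direction, where 8.72% of all genes were called. Slc2a1 was lower in visceral fat, at 11.7 ± 4.29 CPM (n = 6) against 73.4 ± 48.7 CPM (n = 5; log2 -2.64, adjusted p = 0.00469), as was Ndrg1 (-1.25, adjusted p = 0.0308). Bnip3, a mitophagy receptor, was higher at 523 ± 352 against 84.0 ± 29.4 CPM (2.64, adjusted p = 0.0324), with no overlap of libraries, and the glycolytic enzyme gene Pgk1 was higher (1.32, adjusted p = 0.0221). The 5 milk genes, called lower in visceral fat in the same contrast with the limit of the filter given above, moved with the first 2. Their part was not tested. The Slc2a1 call was kept in all 22 other settings run, those of Ndrg1 and Pgk1 in 13 (highest adjusted p 0.239 and 0.439) and that of Bnip3 in 9 (highest 0.163). Both higher calls were lost with TPM scaling, limma and without T2DM libraries 2 and 5. Of the 8 mural cell markers 0 were called in any contrast by edgeR or DESeq2; in visceral fat after bypass Pdgfrb, the receptor of pericytes and fibroblasts, gave 1.06 (adjusted p = 0.119) and Notch3 1.17 (adjusted p = 0.262).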
